A study of Bos taurus with 8 samples.

Results

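Heat shock proteins and small stress chaperones were followed across 8 one-colour arrays of tissue labelled as fetal cotyledon. The rule named 10 genes, HSPB1, HSPB6, HSPB7, HSPB8, CRYAB, HSPA1A, HSPA8, HSP90AA1, HSPH1 and DNAJB1, and took every non-control probe whose gene name or accession led to one of them. It found 29 probes for 9 of the 10 genes among the 51282 probes of the array, and no probe for HSPB7. All 29 probes passed the filter for testing, and 26 of them were well above background on all 8 arrays.

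The tested arrays were 4 labelled pregnant, described as taken after pregnancy, against 4 labelled non-pregnant, described as taken before pregnancy. The cotyledon is the part of the ruminant placenta that the fetus forms, and every sample carries this tissue label and is labelled female, with no treatment, breed or age given. The collection protocol, shared by both groups, speaks of gravid uteri of pregnant buffalo from a slaughterhouse, whereas the organism field names cattle, and the probes are cattle sequences. Nothing in the labels ties the replicates to different animals. The p-values therefore reflect the spread among these 8 samples alone, part of which may be technical.

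The tissue label was checked against markers. Of 10 trophoblast genes tested, 9 were lower in the arrays labelled pregnant and none was higher, with a summed level of 3.99 to 10.9 in the arrays labelled pregnant against 655 to 1036 in those labelled non-pregnant (linear signal over the 75th percentile of the array). CDX2, which defines the trophoblast lineage, was not well above background on any array labelled pregnant. Of 9 endometrial genes tested, 6 were higher and 1 was lower in the arrays labelled pregnant. The markers therefore go against the group labels, and every direction below refers to the labels as given. Blood cell markers differed too. All 7 erythroid genes tested were lower, with a summed level of 0.62 to 2.86 in the arrays labelled pregnant against 337 to 604 in those labelled non-pregnant. Of 8 leukocyte genes tested, 5 were higher and 1 was lower, although their summed level was 22.6 to 58.9 against 63.4 to 90.7. The part of blood cell content in the chaperone differences was not tested. In bulk tissue, fewer cells of a type and less RNA per cell cannot be told apart. The share of probes well above background ran from 60.6% to 66.0% on the arrays labelled pregnant and from 63.7% to 69.5% on those labelled non-pregnant. Arrays correlated at 0.943 to 0.989 within the group labelled pregnant, at 0.957 to 0.987 within the group labelled non-pregnant and at 0.736 to 0.783 between groups. All 8 arrays lay on 1 slide, with the arrays labelled pregnant in row 2 and those labelled non-pregnant in row 1, so slide row and group cannot be told apart.

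Molecular chaperones bind unfolded proteins and keep them from aggregating. Small heat shock proteins hold unfolded clients without using ATP, HSP70 proteins such as HSPA1A and HSPA8 refold them in ATP-driven cycles that J-domain proteins such as DNAJB1 start, and HSP90 matures signalling clients. HSF1 switches on the inducible members after heat or proteotoxic stress, while HSPA8 is made constitutively and several small heat shock proteins are abundant in muscle.

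Levels are given as log2 signal relative to the 75th percentile of the same array, differences are log2 values of labelled pregnant minus labelled non-pregnant, and a gene is represented by its brightest tested probe. A difference was called when limma's p-value, adjusted over all 34627 tested probes, was below 0.05. All 4 measured small heat shock proteins among the members, HSPB1, HSPB6, HSPB8 and CRYAB, were higher in the arrays labelled pregnant. Of the 2 tested outside the members, HSPB2 was higher and HSPB3 lower. HSPA1A, HSPA8 and DNAJB1 were lower, and HSP90AA1 and HSPH1 did not pass the test. In all, 7 of the 9 genes were called (77.8%), beside 62.6% of all 13103 genes tested (29.7% higher and 32.9% lower). Of all called genes, 47.5% were higher, a share that fell to 34.7% with median scaling and 31.4% without scaling. The groups did not overlap for 8 of the 9 genes, beside 60.2% of all genes. The median difference of the members was -0.20, beside -0.03 for all genes. With so large a share of all genes called, the members' counts are a description only.

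**Figure D1:**
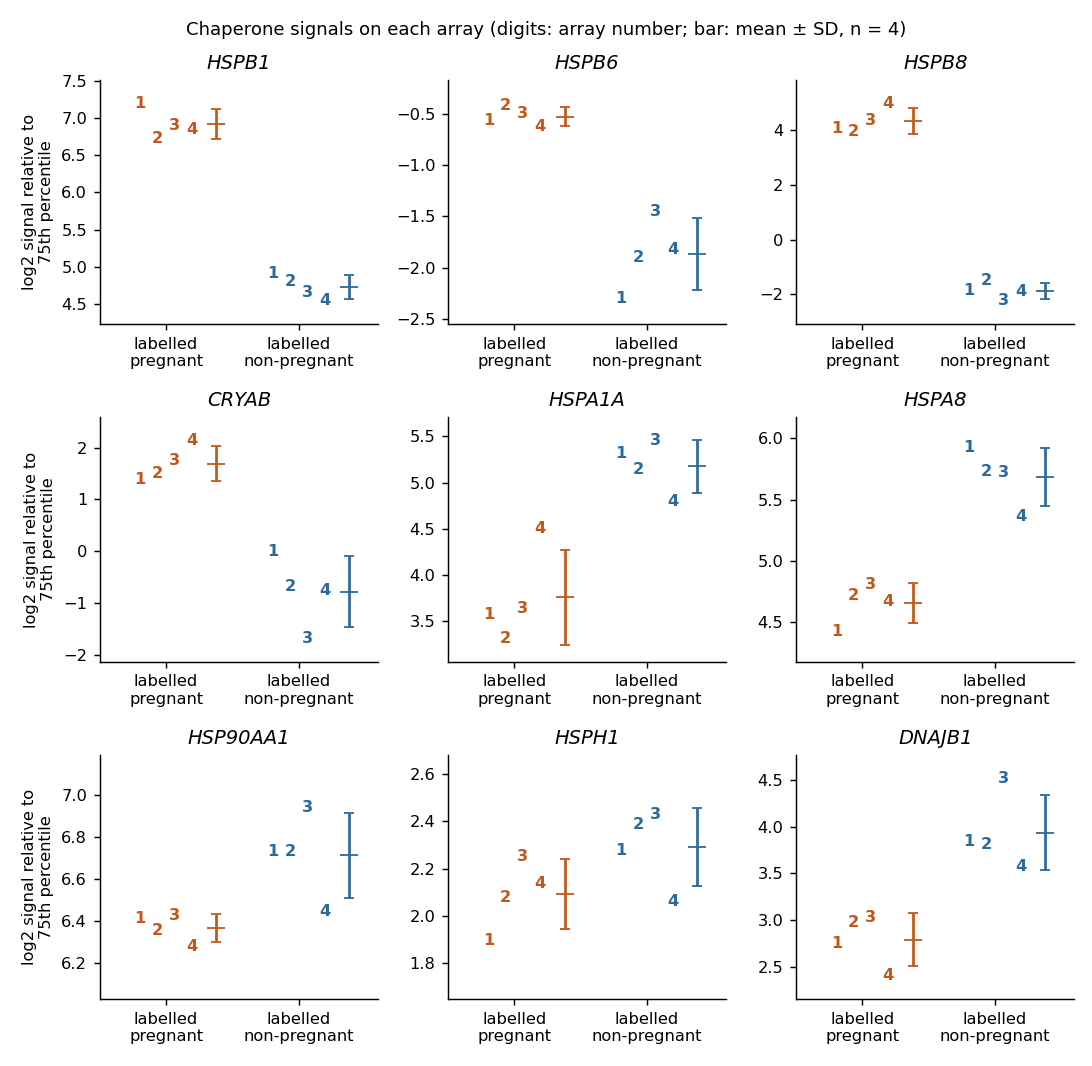
Log2 signal relative to the 75th percentile of the array (vertical axis, a different range in each panel) of the brightest probe of 9 chaperone genes on 4 arrays labelled pregnant (left, orange) and 4 labelled non-pregnant (right, blue). Each digit is 1 array, plotted at its number, and the bar is the mean ± SD (n = 4). The orange digits stand above the blue ones for HSPB1, HSPB6, HSPB8 and CRYAB and below them for HSPA1A, HSPA8, HSP90AA1 and DNAJB1, and the 2 groups overlap for HSPH1.

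HSPB8, a small heat shock protein that works with BAG3 in chaperone-assisted autophagy, showed the largest difference among the members. Its brightest probe, A_73_113698 (chr17:59096092-59096151, build Btau_3.1, minus strand), read 4.05, 3.94, 4.36 and 4.98 on the arrays labelled pregnant, against -1.85, -1.52, -2.23 and -1.90 on those labelled non-pregnant. Every array labelled pregnant lay far above every array labelled non-pregnant, by more than the spread within either group. The difference was 6.21 (SE 0.27), or 73.8-fold higher, with an adjusted p of 4.83e-07, and it ranked 151 of 13103 genes in that direction. Both other HSPB8 probes were also higher. Probe A_73_P324666 (chr17:59096900-59096959, minus strand) differed by 5.44 (SE 0.40, adjusted p = 6.67e-06), with a signal well above background on 3 of the 4 arrays labelled non-pregnant. Probe A_73_P259316 (chr17:59096509-59096568, minus strand) differed by 7.11 (SE 0.37, adjusted p = 1.12e-06), but only 1 of the 4 arrays labelled non-pregnant was well above background. The sequences of the most upstream probe, whole, and of the brightest probe, its last 30 bases, are shown because they lie 808 bases apart on the genome and gave the same direction.
HSPB8 A_73_P324666: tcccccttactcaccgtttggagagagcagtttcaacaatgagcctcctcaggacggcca
HSPB8 A_73_113698: gcgtgtcattgttatttgaattgtgctgtt

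CRYAB, alpha-B-crystallin, is abundant in lens and muscle and binds desmin filaments. Its brightest probe, A_73_101765 (chr15:20478813-20478872, minus strand), read 1.38, 1.49, 1.76 and 2.13 on the arrays labelled pregnant, against -0.01, -0.67, -1.67 and -0.75 on those labelled non-pregnant. The groups did not overlap, although the arrays labelled non-pregnant were spread over 1.66. The difference was 2.46 (SE 0.35, adjusted p = 0.000300), or 5.51-fold. The second probe, A_73_P039441, differed by 2.38 (SE 0.33, adjusted p = 0.000265) and showed the same order of arrays labelled non-pregnant at both ends, with array 1 highest and array 3 lowest. Its coordinates, chr15:20479069-20480618, span 1550 bases for a probe of 60, so it crosses an intron in the array's own annotation and its sequence is shown as the junction probe.
CRYAB A_73_P039441: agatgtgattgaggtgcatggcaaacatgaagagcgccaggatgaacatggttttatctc

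HSPB2, a muscle small heat shock protein outside the members, is the neighbour of CRYAB in the reference gene table. Its probe (chr15:20484202-20484261) read -1.20, -1.05, -0.92 and -1.47 on the arrays labelled pregnant, against -3.05, -2.96, -3.90 and -3.29 on those labelled non-pregnant. It was higher by 2.14 (SE 0.25, adjusted p = 9.50e-05), and as for CRYAB, array 3 was the lowest of those labelled non-pregnant.

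HSPB1, the small heat shock protein HSP27, which binds actin filaments, was higher by its mapped probe. Probe A_73_P030911 (chr25:36499455-36499514, plus strand) read 7.20, 6.73, 6.90 and 6.85 on the arrays labelled pregnant, against 4.91, 4.81, 4.66 and 4.54 on those labelled non-pregnant. Neither group spread by more than 0.47, and the groups did not overlap. The difference was 2.19 (SE 0.18, adjusted p = 1.31e-05), or 4.56-fold higher. A second probe assigned to HSPB1, A_73_P118361, has no coordinates and did not follow the first. It lay near background, above it on 1 array labelled pregnant and 4 labelled non-pregnant, and differed by -0.49 (SE 0.25, adjusted p = 0.113). It was called lower, against the direction of the first probe, with median scaling (-0.88, adjusted p = 0.0236), without scaling (-0.98, adjusted p = 0.00326) and with quantile normalization (-0.98, adjusted p = 0.00868), and was at 0.07 with normexp background correction. With both probes averaged the difference of HSPB1 was 0.85.

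HSPB6, also known as HSP20, is a phosphoprotein of relaxing smooth muscle. Probe A_73_114151 (chr18:45891754-45891813, minus strand) read -0.57, -0.42, -0.50 and -0.63 on the arrays labelled pregnant, against -2.30, -1.90, -1.45 and -1.82 on those labelled non-pregnant. The arrays labelled pregnant lay within 0.21 of each other, and those labelled non-pregnant were spread over 0.85. The difference was 1.34 (SE 0.21, adjusted p = 0.000574), or 2.52-fold higher, and without scaling between arrays it was 0.85. The last 30 bases of the probe are shown because they hold the motif AATAAA, in capitals, the letters of the canonical polyadenylation signal. The motif alone shows neither that the signal is used nor that a transcript ends there.
HSPB6 A_73_114151: taggcccactcccccAATAAAtgtgctaga

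The second HSPB6 probe, A_73_P424886, 510 bases upstream, read -3.77, -4.06, -3.99 and -4.19 on the arrays labelled pregnant, against -4.68, -4.45, -4.32 and -4.66 on those labelled non-pregnant. Its difference of 0.52 (SE 0.18, adjusted p = 0.0320) was smaller and depended on the scaling: it was 0.04 without scaling, 0.10 with quantile normalization and 0.14 with median scaling, none of them called. The call also ended with normexp background correction (adjusted p = 0.0553) and, at differences of 0.45 to 0.55, when any array but array 4 labelled pregnant or array 3 labelled non-pregnant was left out (adjusted p of 0.0572 to 0.0874).

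Smooth and striated muscle markers went in different directions. Of 14 smooth muscle genes tested, 8 were higher in the arrays labelled pregnant, none was lower and 6 did not pass the test, with a median difference of 1.67. Their summed level ranged from 113 to 239 in the arrays labelled pregnant and from 63.9 to 139 in those labelled non-pregnant, so the sums overlapped. DES, the desmin gene, was higher by 3.41 (SE 0.21), while MYH11, smooth muscle myosin, had a difference of -0.76 (SE 0.57, adjusted p = 0.279) and ACTG2, a smooth muscle actin, one of -1.78 (SE 0.90, adjusted p = 0.116). PLN was not well above background on any array labelled non-pregnant. Of 5 striated muscle genes tested, 4 were lower and none was higher. The part of smooth muscle content in the small heat shock protein differences was not tested.

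HSPA1A, the heat-inducible HSP70, was lower in the arrays labelled pregnant by its brightest probe, and its 5 probes did not show the arrays in the same order. The brightest, A_73_P359866, has no coordinates in the files. It read 3.57, 3.31, 3.63 and 4.50 on the arrays labelled pregnant, against 5.32, 5.15, 5.45 and 4.79 on those labelled non-pregnant. The groups did not overlap, with array 4 the highest of those labelled pregnant and array 4 the lowest of those labelled non-pregnant. The difference was -1.42 (SE 0.28, adjusted p = 0.00235), or 2.68-fold lower, and with quantile normalization it was -0.86.

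The other 4 HSPA1A probes lie on chromosome 23, and on each of them array 1 was the lowest and array 4 the highest of the arrays labelled non-pregnant. Probe A_73_104629 (chr23:27311987-27312046, minus strand) read 1.36, 1.06, 1.36 and 2.10 on the arrays labelled pregnant, against 1.47, 2.62, 3.26 and 4.27 on those labelled non-pregnant. Probe A_73_P474283 (chr23:27313147-27313206, minus strand) read -1.80, -2.54, -2.10 and -0.89 on the arrays labelled pregnant, against -1.50, -0.85, 0.15 and 1.04 on those labelled non-pregnant. Array 1 labelled non-pregnant lay inside the range of the arrays labelled pregnant on both. The differences were -1.44 (SE 0.54, adjusted p = 0.0447) and -1.54 (SE 0.56, adjusted p = 0.0410). Both calls lay close to the threshold. The call of A_73_104629 ended when array 1, 2 or 3 labelled pregnant or array 2, 3 or 4 labelled non-pregnant was left out, at differences of -0.98 to -1.53 (adjusted p of 0.0673 to 0.103). The call of A_73_P474283 ended without array 1, 2 or 3 labelled pregnant or without array 3 or 4 labelled non-pregnant, at differences of -1.10 to -1.55 (adjusted p of 0.0755 to 0.103).

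Probes A_73_P275126 and A_73_P268106 differed by -1.25 (SE 0.67, adjusted p = 0.138) and -1.13 (SE 0.64, adjusted p = 0.158). Both passed the test with median scaling (adjusted p of 0.0373 and 0.0413), with array weights (0.0213 and 0.0347) and without array 1 labelled non-pregnant (0.0396 and 0.0422). They share a run of 29 bases, in capitals, so they are not independent readings. All sequences of HSPA1A are shown because the brightest probe, at 35.0% G and C letters, and the others, at 51.7% to 60.0%, ordered the arrays labelled non-pregnant differently. The brightest probe is given by its last 30 bases. HSPA1A has near-identical copies in mammals, so signals may include a copy's transcript.
HSPA1A A_73_P359866: tcacccgtttctgtttacttccaagtaaat
HSPA1A A_73_104629: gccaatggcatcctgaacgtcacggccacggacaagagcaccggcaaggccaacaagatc
HSPA1A A_73_P474283: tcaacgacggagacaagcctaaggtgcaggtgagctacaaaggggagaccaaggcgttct
HSPA1A A_73_P275126: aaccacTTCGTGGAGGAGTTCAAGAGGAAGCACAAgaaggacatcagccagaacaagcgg
HSPA1A A_73_P268106: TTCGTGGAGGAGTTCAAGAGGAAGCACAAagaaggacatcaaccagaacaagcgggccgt

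HSPA8, the constitutive HSP70 known as HSC70, was lower in the arrays labelled pregnant on all 6 of its probes, of which 5 passed the test as reported and 3 with quantile normalization. The brightest, A_73_P341276 (chr15:32348180-32348239, minus strand), read 4.43, 4.72, 4.81 and 4.67 on the arrays labelled pregnant, against 5.92, 5.73, 5.72 and 5.36 on those labelled non-pregnant. The groups did not overlap, with a spread of 0.38 in the first and 0.56 in the second. The difference was -1.03 (SE 0.19, adjusted p = 0.00147), or 2.04-fold lower, and with quantile normalization it was -0.44 (adjusted p = 0.0302).

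The next probe by brightness, A_73_115239, read 3.80, 4.33, 4.35 and 4.43 on the arrays labelled pregnant, against 5.48, 5.38, 5.80 and 5.63 on those labelled non-pregnant, again without overlap. It gave the largest HSPA8 difference, -1.34 (SE 0.20, adjusted p = 0.000477). Its coordinates, chr15:32348525-32348871, span 347 bases, and 33 of its bases are shared with an unnamed probe of the array, so it may also read a copy. Probe A_73_P403651, 800 bases from the one assigned nearest the transcript end, differed by -1.30 (SE 0.22, adjusted p = 0.000991). Probe A_73_P334021, 1657 bases from it, differed by -1.24 (SE 0.35, adjusted p = 0.0135), and by -0.78 with quantile normalization (adjusted p = 0.126).
HSPA8 A_73_115239: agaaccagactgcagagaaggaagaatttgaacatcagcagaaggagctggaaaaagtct

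The HSPA8 probe farthest upstream, A_73_P448151 (chr15:32351101-32351160), lies 2966 bases from the one assigned nearest the transcript end, A_73_P100171. It read -0.02, 0.43, 0.66 and 0.98 on the arrays labelled pregnant, against 0.79, 1.71, 1.55 and 2.78 on those labelled non-pregnant. The groups overlapped, and array 4 labelled non-pregnant, the lowest of its group on the brightest probe, was the highest here. The difference was -1.20 (SE 0.41, adjusted p = 0.0303). The call ended with the percentile over probes detected on all arrays (-1.04, adjusted p = 0.0742) and with quantile normalization (-1.12, adjusted p = 0.05004). It also ended without array 1, 2 or 3 labelled pregnant or without array 2 or 3 labelled non-pregnant (adjusted p of 0.0507 to 0.0808). Probe A_73_P100171, which is assigned coordinates for only 20 of its bases, missed the threshold at -0.98 (SE 0.41, adjusted p = 0.0631). It passed with normexp background correction (adjusted p = 0.0444), median scaling (0.00733), no scaling (0.0472) and array weights (0.00798), and without array 1 labelled non-pregnant (0.0226).

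DNAJB1, the HSP40 cochaperone that delivers clients to HSP70, was lower on both probes. Probe A_73_110248 (chr7:9502456-9502515, minus strand) read 2.75, 2.97, 3.03 and 2.40 on the arrays labelled pregnant, against 3.84, 3.81, 4.52 and 3.58 on those labelled non-pregnant. The groups did not overlap, and the difference was -1.15 (SE 0.25, adjusted p = 0.00386), or 2.22-fold lower. With quantile normalization it was -0.75. The probe 1691 bases upstream, A_73_P262981 (chr7:9504147-9504206), read -1.13, -1.04, -1.20 and -0.21 on the arrays labelled pregnant, against 0.37, 1.01, 1.59 and 1.49 on those labelled non-pregnant. It gave a difference of -2.01 (SE 0.33, adjusted p = 0.000801), and its sequence is shown as the DNAJB1 probe with the larger change.
DNAJB1 A_73_P262981: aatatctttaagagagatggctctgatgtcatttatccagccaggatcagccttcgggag

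HSP90AA1, the inducible cytosolic HSP90, had negative differences on all 6 probes, from -0.35 to -0.65, and none passed the test as reported (adjusted p of 0.103 to 0.350). The calls depended on the setting: 5 of the 6 probes passed without scaling and 5 with array weights, while A_73_P311796 and A_73_P103241 turned to 0.02 and 0.11 with quantile normalization, neither called. Its brightest probe, A_73_P129021 (chr21:67024849-67024908, minus strand), read 6.41, 6.35, 6.43 and 6.28 on the arrays labelled pregnant, against 6.73, 6.73, 6.94 and 6.45 on those labelled non-pregnant. These groups just failed to overlap, and the difference was -0.35 (SE 0.17, adjusted p = 0.112). It passed the test without array 4 labelled non-pregnant, at -0.44 (adjusted p = 0.0481). Under median scaling the difference was -0.73 (adjusted p = 0.0193) and without scaling it was -0.83 (adjusted p = 0.0118), settings that also moved the median of all genes to -0.42 and -0.52. With quantile normalization it was -0.13. Beside it, HSP90AB1, the constitutive HSP90, had a difference of -0.04 (SE 0.20, adjusted p = 0.868).

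Of the other 5 HSP90AA1 probes, A_73_103158 differed by -0.50 (SE 0.24), A_73_P311796 by -0.46 (SE 0.31) and A_73_P449761 by -0.65 (SE 0.40). The probes also ordered the arrays labelled non-pregnant differently. Probe A_73_P103241, 3335 bases upstream of the last probe, read 5.03, 4.98, 5.01 and 4.31 on the arrays labelled pregnant, against 6.25, 5.75, 5.09 and 4.17 on those labelled non-pregnant. Array 1 labelled non-pregnant was the highest of its group and array 4 the lowest. Probe A_73_P225557, 1344 bases upstream, read 2.52, 2.79, 2.85 and 3.01 on the arrays labelled pregnant, against 2.98, 3.31, 2.91 and 4.22 on those labelled non-pregnant. There array 4 was the highest of the arrays labelled non-pregnant.

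HSPH1, the HSP110 exchange factor that resets HSP70, was represented by 1 probe (chr12:29619632-29619691, plus strand). It read 1.90, 2.08, 2.25 and 2.14 on the arrays labelled pregnant, against 2.28, 2.39, 2.43 and 2.06 on those labelled non-pregnant. The groups overlapped, and the difference of -0.20 (SE 0.17, adjusted p = 0.349) was close to the spread within each group. It was 0.02 with quantile normalization and -0.58 with median scaling (adjusted p = 0.0495).

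**Figure D2:**
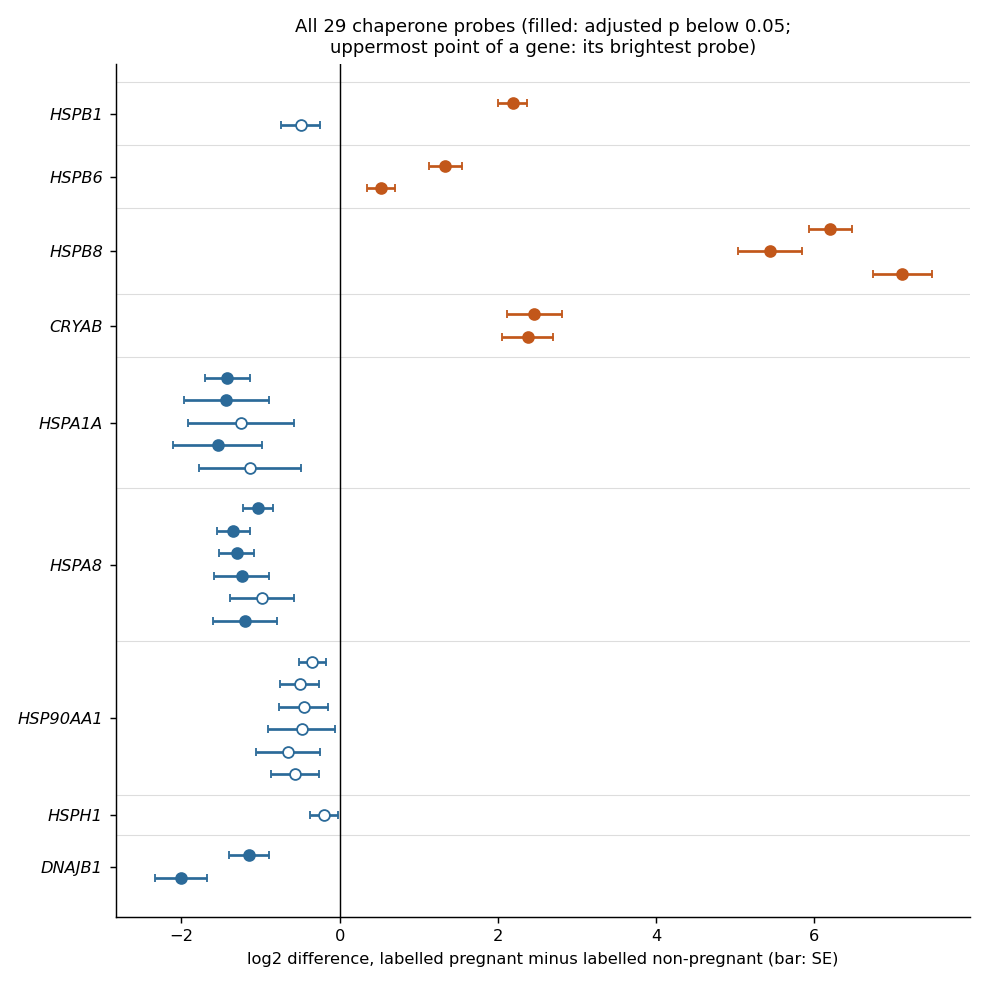
Log2 difference, labelled pregnant minus labelled non-pregnant (horizontal axis), of all 29 chaperone probes, grouped by gene. Points are differences from limma with bars of 1 SE, filled where the adjusted p was below 0.05, orange above 0 and blue below 0. The 3 HSPB8 probes stand between 5.44 and 7.11, the second HSPB1 probe lies on the other side of 0 from the first, and every HSPA1A, HSPA8, HSP90AA1 and DNAJB1 probe lies below 0.

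Over all probes, 8 of 29 were higher, 10 were lower and 11 did not pass the test, beside 59.4% called, 30.3% higher and 29.1% lower, of all 34627 tested probes. The count of higher member probes was 6 to 8 over the alternatives. The count of lower ones was 18 with median scaling, 17 without scaling, 18 with array weights and 12 with normexp background correction, but 8 with quantile normalization and 7 with the percentile over probes detected on all arrays or without array 1, 2 or 3 labelled pregnant. The spread among the arrays labelled non-pregnant depended on the probe. For HSPA1A their SD was 0.29 on the brightest probe and 1.12 to 1.44 on the other 4. For HSPA8 it was 0.23 on the brightest probe, 0.82 on the probe farthest upstream and 0.85 on A_73_P100171. The coordinates of A_73_P100171 cover only 20 of its 60 bases, so its place near the transcript end is uncertain. For HSP90AA1 the SD of the arrays labelled non-pregnant ran from 0.20 to 0.90. Among the arrays labelled pregnant the SD was 0.44 to 0.70 over the HSPA1A probes and 0.07 to 0.35 over those of HSP90AA1. Intensity differed between the same arrays: the 75th percentile of intensity was 798 on array 1 and 1347 on array 4 of those labelled pregnant, against 1168 on array 1 and 1797 on array 4 of those labelled non-pregnant, the lowest and highest of each group. The HSPA1A probe A_73_P268106, assigned nearest the transcript end, had an SD of 1.39. Its coordinates cover only 30 of its 60 bases, and it shares 29 bases with A_73_P275126, which is assigned a position upstream. Its place is therefore uncertain, and its SD is no reading of the transcript end. The part of array intensity in these spreads was not tested.

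**Figure D3:**
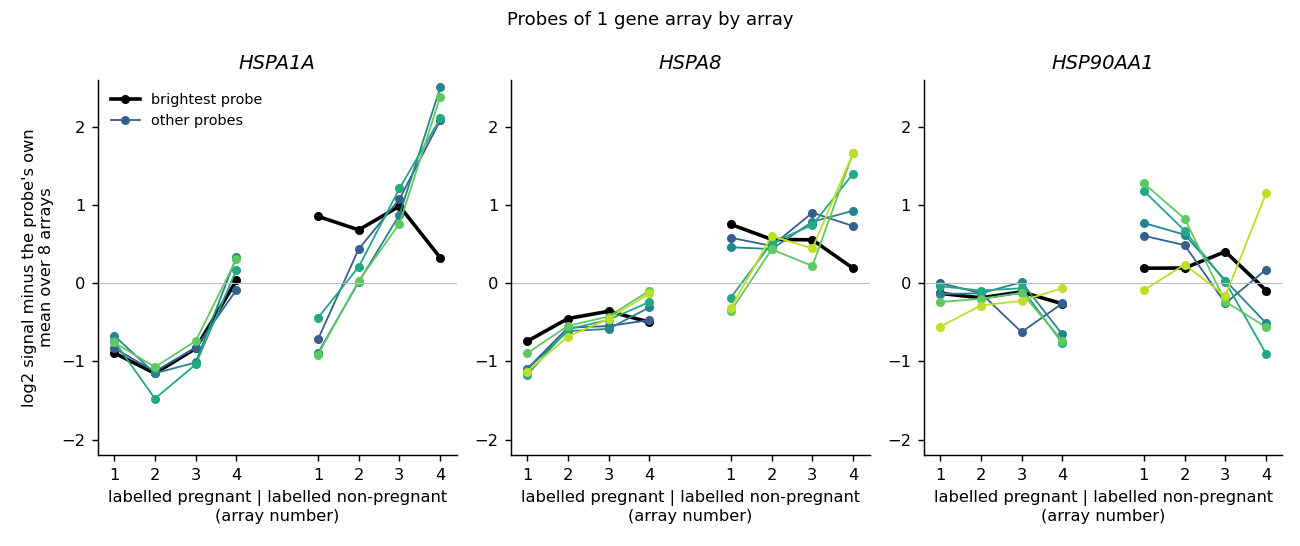
Log2 signal of each probe minus that probe's own mean over 8 arrays (vertical axis) on arrays 1 to 4 labelled pregnant (left) and arrays 1 to 4 labelled non-pregnant (right), for HSPA1A, HSPA8 and HSP90AA1. Each line joins the points of 1 probe for reading only, since arrays of a group have no order, with the brightest probe in black and other probes in colour. For HSPA1A the 4 coloured lines lie below the mean on array 1 and above it on array 4 labelled non-pregnant, while the black line lies above it on both.

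The other genes of the chaperone network were mostly lower. Of 74 listed genes outside the members, 70 were tested. In the arrays labelled pregnant, 41 were lower (58.6%), 8 were higher (11.4%) and 21 did not pass the test, with a median difference of -0.67. Beside them, 32.9% of all genes were lower and 29.7% higher, with a median of -0.03. Of 9 reference genes tested, ACTB and GAPDH among them, 4 were lower (44.4%), 1 was higher (11.1%) and 4 did not pass the test. Their median difference was -0.50, so a shift downward was not particular to the chaperone genes. The count of lower genes in the wider chaperone list ran from 30 with quantile normalization to 51 without scaling.

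Chaperonins and prefoldins, which fold actin and tubulin or serve mitochondria, were the group with the most lower genes, 14 of 16, with 1 higher and a median of -0.92. PFDN6, PFDN4 and CCT5 had the largest falls by their brightest probes, by 1.67 (SE 0.24), 1.52 (SE 0.20) and 1.41 (SE 0.19). Neither of the 2 other tested CCT5 probes was called. PFDN5, a prefoldin subunit, was the 1 that rose, by 1.26 (SE 0.25, adjusted p = 0.00214), with 6.43 ± 0.30 in the arrays labelled pregnant and 5.17 ± 0.39 in those labelled non-pregnant (SD, n = 4 each). The other tested PFDN5 probe was not called. TCP1 missed the threshold at -0.38 (adjusted p = 0.257) on its brightest probe, while all 3 of its other tested probes were called lower. With quantile normalization CCT2, CCT3, CCT6A, CCT7, HSPD1, HSPE1 and PFDN1 also missed it.

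Other HSP70 and HSP110 genes gave 7 lower, 1 higher and 2 not called of 10. HSPA4L, an HSP110 gene, differed by -5.23 (SE 0.88, adjusted p = 0.000851) but was well above background on 1 of the 4 arrays labelled pregnant. It read -7.49, -7.27, -7.34 and -3.24 on the arrays labelled pregnant, against -1.27, -0.84, -1.52 and -0.79 on those labelled non-pregnant. HSPA4, its paralog, fell by 2.71 (SE 0.22) on its brightest probe, while its other probe was called higher. HSPA6, a strictly inducible HSP70 in humans, fell by 2.62 (SE 0.29). HSPA12B, an endothelial HSP70 relative, rose by 1.86 (SE 0.33, adjusted p = 0.00121) on its brightest probe, while its other tested probe was not called.

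J-domain cochaperones, the partners that stimulate HSP70, gave 9 lower, none higher and 5 not called of 14 by their brightest probes. Of those not called, DNAJB2 had both other probes called higher, and DNAJC21 had all 3 other probes called lower. The largest falls were those of DNAJC5, by 3.17 (SE 0.30), DNAJA3, by 1.87 (SE 0.25), and DNAJA2, by 1.81 (SE 0.17). DNAJC5 was well above background on 3 of the 4 arrays labelled pregnant.

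Among the 7 exchange factors, which release ADP from HSP70, BAG2 fell by 1.17 (SE 0.18), HSPBP1 by 0.93 (SE 0.25) and BAG1 by 0.58 (SE 0.17). The other tested BAG1 probe was not called. BAG5 rose by 0.79 (SE 0.25, adjusted p = 0.0215) but missed the threshold under median scaling, at 0.40 (adjusted p = 0.196), and without scaling, at 0.30 (adjusted p = 0.524). BAG3, the partner of HSPB8, read 1.29, 0.96, 0.75 and 0.88 on the arrays labelled pregnant, against 0.23, 0.20, 1.61 and 0.59 on those labelled non-pregnant. Array 3 labelled non-pregnant was the highest of all 8, and the difference of 0.31 (SE 0.32, adjusted p = 0.424) did not pass the test. Both other BAG3 probes were called higher.

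HSP90 and its cochaperones gave 6 lower, 1 higher and 7 not called of 14. Of those not called, ST13 had 2 of its 4 other probes called higher. STIP1, the adaptor that links HSP70 to HSP90, fell by 1.98 (SE 0.18), UNC45A, a myosin chaperone, by 1.68 (SE 0.18) and TRAP1, the mitochondrial HSP90, by 1.66 (SE 0.45). Neither of the 2 other tested TRAP1 probes was called. FKBP5, a cochaperone of steroid receptors and a glucocorticoid- and progesterone-responsive gene, was the 1 that rose. It read 0.53, 2.47, 2.18 and 3.06 on the arrays labelled pregnant, against -0.67, -1.44, -1.64 and -1.02 on those labelled non-pregnant. The groups did not overlap, and array 1 was the lowest of those labelled pregnant. The difference was 3.25 (SE 0.50, adjusted p = 0.000525), and both other FKBP5 probes were called higher too.

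Of the 4 heat shock factor genes tested, HSF2 rose by 1.07 (SE 0.17, adjusted p = 0.000684) and HSF4 by 0.76 (SE 0.20, adjusted p = 0.00910). The call of HSF4 ended under median scaling, without scaling and under quantile normalization. HSF1, the stress-responsive factor, had a difference of -0.47 (SE 0.19, adjusted p = 0.0567). HSBP1, which binds HSF1, fell by 1.28 (SE 0.24) on its brightest probe, with 1 other probe called higher and 1 lower. Of 2 other small heat shock proteins tested, HSPB2 was higher, as given above, and HSPB3, a muscle small heat shock protein, was at least 18.0-fold lower and not well above background on any array labelled pregnant.

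Among 14 heat-inducible genes outside the members, 6 were lower, 1 was higher and 7 did not pass the test, with a median of -0.40. The 1 that rose was SERPINH1, a collagen chaperone of the endoplasmic reticulum, by 1.02 (SE 0.28, adjusted p = 0.0125), which missed the threshold under median scaling and without scaling. Immediate early genes, which respond to tissue handling, were read beside them. Of 10 tested, 3 were higher in the arrays labelled pregnant, none was lower and 7 did not pass the test. Those higher were EGR1, by 2.08 (SE 0.46), DUSP1, by 2.06 (SE 0.31), and NR4A1, by 1.17 (SE 0.29). Of all 13103 genes tested, 29.7% were higher and 32.9% lower. The share of immediate early genes called higher was thus close to that of all genes. The summed level of the immediate early genes was 66.9 to 153 in the arrays labelled pregnant, against 32.6 to 53.6 in those labelled non-pregnant. The part of tissue handling in the chaperone differences was not tested.

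**Figure D4:**
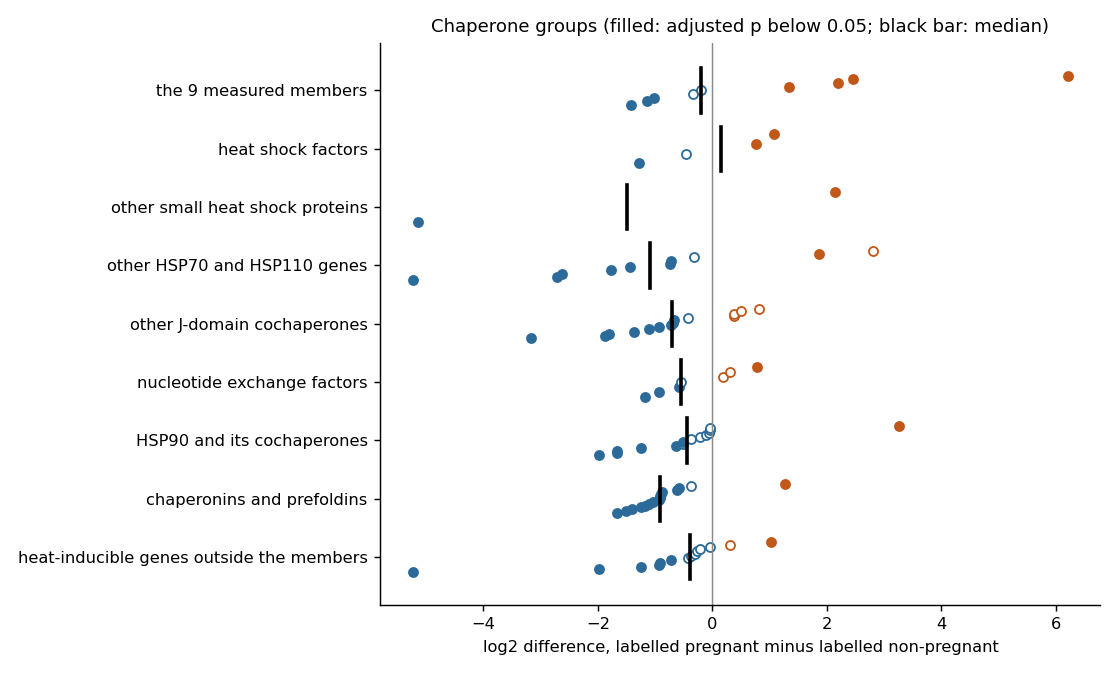
Log2 difference, labelled pregnant minus labelled non-pregnant (horizontal axis), of the 9 measured members and of 8 groups of other chaperone genes. Each point is 1 gene by its brightest probe, filled where the adjusted p was below 0.05, orange above 0 and blue below 0, and the black bar is the group median; HSPB3, below background in the arrays labelled pregnant, is drawn at its fitted difference. Most points of the chaperonins and prefoldins lie left of 0, with 14 lower and 1 higher.

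The genes whose pattern came nearest to the mean of HSPA1A, HSPH1, DNAJB1 and HSP90AA1 were LYPLA1, ANAPC5, PPP1R9A, RRP15 and BORCS8. Likeness was Pearson's r over 8 arrays, with each value taken as a deviation from its own group's mean, and ran from 0.94 to 0.96. For the mean of HSPB1, HSPB6, HSPB8 and CRYAB the nearest were CEP162, PCYOX1, CORO2A, PIGH and MTARC2, with r from 0.96 to 0.99. They are the highest of 13086 genes over only 8 points, and the points share array and scaling.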

How the data were processed

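RNA of 8 samples, labelled with Cy3 by oligo-dT primed amplification per the labels' protocols, was hybridised to one-colour Agilent cattle arrays. The spot intensity deposited by the authors was made, per the file headers, with Agilent Feature Extraction 11.5.1.1 (GE1_1105_Oct12), which subtracts background and a spatial trend and does not scale between arrays. The authors also deposited log2 values, used as an alternative, whose columns matched log2 processed intensity of their own array (r of at least 0.999) with the 75th percentile set to about 0. No source states that scale or centring, which the values show. Column medians lay at -3.56, -3.61, -3.64 and -3.61 for arrays 1 to 4 labelled pregnant and -4.21, -4.01, -4.00 and -3.77 for those labelled non-pregnant.

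Here, log2 of the processed intensity minus the array's 75th percentile was taken after leaving out 1319 control spots and 119 spots with an outlier flag, and spots of 1 probe were averaged. No spot was saturated. Probes flagged well above background in 4 or more of the 8 arrays, 34627 in all, were tested with limma 3.58.1 in R 4.3.3 (lmFit, eBayes, 8 arrays, no covariates, Benjamini-Hochberg, threshold 0.05). The number of arrays limits the precision. A gene took its probe with the highest mean. Where no array of a group was well above background, the fold is a lower bound: in place of the dim group's signal, each dim array took the larger of the probe's signal and the array's lowest detected signal. Names came from the files and a cattle gene table (ARS-UCD2.0), and coordinates from the files (Btau_3.1). Exons and untranslated regions are not given in the sources used here. Probe sequences are those of the scanner files. The fit was tested on simulated data.

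The rule for naming took all 10 members and every probe found for them. In each wider list, up to 3 genes with the largest called differences in each direction were named, with any gene that completed a count or that background ties to a member. Members and lists were chosen with earlier results of these data known. The alternatives were other background correction, scaling, filters, the deposited table, array weights, a replicate block, the mean over probes and leaving out arrays.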

Additional observations from a re-analysis of the deposited data

Results flagged for a closer look

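In 4 of the 58 sets of 4 arrays (29 probes in each group) 1 array stood apart by more than Dixon's critical value for that size, where chance gives about 5% of sets. All 4 lie among the arrays labelled pregnant and 3 concern array 4. The second HSPB1 probe read -5.99 on array 4, with the nearest other array at -5.25. The HSPA8 probe A_73_115239 read 3.80 on array 1, with the nearest at 4.33. The HSP90AA1 probe A_73_P103241 read 4.31 on array 4, with the nearest at 4.98. The second DNAJB1 probe read -0.21 on array 4, with the nearest at -1.04.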

How the results depend on the processing

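The 7 called members kept their direction and side of the threshold under all 20 alternatives. The number of members called was 7 to 9, of the wider list 39 to 56, beside 49 as reported, and of all genes 6878 to 9822, beside 8209. Leaving out 1 array gave 7 to 8 members, 40 to 51 genes of the wider list and 7373 to 8383 of all genes. HSP90AA1 passed the threshold in 5 alternatives, among them normexp background correction (-0.40) and array weights (-0.34), and HSPH1 under median scaling. HSPH1 turned to 0.015 with quantile normalization, and the cause was not tested. The median of all genes, -0.03 as reported, moved to -0.42 on scaling by the median, to -0.52 without scaling, to 0.13 when the percentile came from probes detected throughout, and to 0.22 when dim probes were kept. The share of called genes that were higher was 47.5% as reported, 34.7% on scaling by the median and 31.4% without scaling. The values do not settle whether the same replicate numbers in both groups pair the arrays. Deviations of same-numbered arrays correlated at only 0.01, 0.08, 0.05 and 0.15. Of the 4 arrays labelled pregnant, 3 correlated best with their own number, a hint of pairing from the data only. With the replicate number as a block, 7 members, 45 genes of the wider list and 7968 of all genes were called. The block also moved single probes: 13 member probes were called lower with it, beside 10 as reported, among them HSPA1A A_73_P275126 (adjusted p = 0.0464) and A_73_P268106 (0.0466) and HSPA8 A_73_P100171 (0.0220), while HSPB6 A_73_P424886 was no longer called (0.0638). Probes near background, such as the second HSPB1 probe, are limited by their signal.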
